A study of Homo sapiens with 6 samples.

Results

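A family of 10 genes for liver-secreted inhibitors and carriers was followed in Huh7, an established human hepatocellular carcinoma line: alpha-2-macroglobulin (A2M) and its close relative pregnancy zone protein (PZP), the 5 inter-alpha inhibitor heavy chains ITIH1 to ITIH5, their light chain gene AMBP, and the fetuins AHSG and FETUB. The members were taken by gene symbol from the platform annotation, which gave 10 of the 18132 genes measured and 29 of the 49293 probe sets. The family was selected on measured values, the log2 differences between these same arrays, A2M having 1 of the largest. What its members show in this contrast is therefore a description, without a test of the members, and their calls are set beside the share of all genes called.

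Transcript levels were measured on 6 Affymetrix arrays, 3 of control Huh7 cells and 3 of Huh7 cells labelled as KCa3.1 silenced, whose genotype is given as KCa3.1 knockdown. KCa3.1 is a calcium-activated potassium channel encoded by KCNN4. All cells were in logarithmic growth, their medium was renewed on the day before extraction, and the means of silencing is not given in the sources used here. Nothing in the labels says that the 3 arrays of a group came from separate cultures, so error estimates cover the spread between these arrays, which may be technical. The design text sets the profile of silenced cells against that of control cells.

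A2M is a large plasma protein that traps proteases after they cleave its bait region, and the trapped complex is cleared through the receptor LRP1. The inter-alpha inhibitors are unusual in that heavy chains are joined to bikunin, a Kunitz-type protease inhibitor cut from the AMBP precursor, through a chondroitin sulfate chain. The enzyme TSG-6 can move the heavy chains from there onto hyaluronan, which stabilises the pericellular matrix. Fetuins belong to the cystatin superfamily, and AHSG keeps calcium phosphate soluble in serum. Hepatocytes are the main source of these plasma proteins, ITIH5 being made mostly outside the liver.

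A promoter window is shown for AMBP, the called member with a window in the RefSeq table (GRCh38.p14), and for ITIH4, the heavy chain known as an acute phase protein. The capitals mark matches, on either strand, to the motif TGTTTNC, which stands for FOXA factors, and to TTCNNNGAA, which stands for STAT factors. Each window runs from 250 bases before to 50 after the start of transcription. The AMBP window lies at chr9:114078251-114078550 and the ITIH4 window at chr3:52830623-52830922, both on the minus strand.
AMBP: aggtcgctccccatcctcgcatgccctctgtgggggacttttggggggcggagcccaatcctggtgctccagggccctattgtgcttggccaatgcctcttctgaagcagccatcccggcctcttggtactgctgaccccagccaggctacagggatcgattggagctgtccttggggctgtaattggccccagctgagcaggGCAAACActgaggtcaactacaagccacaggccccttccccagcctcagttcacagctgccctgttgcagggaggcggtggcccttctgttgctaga
ITIH4: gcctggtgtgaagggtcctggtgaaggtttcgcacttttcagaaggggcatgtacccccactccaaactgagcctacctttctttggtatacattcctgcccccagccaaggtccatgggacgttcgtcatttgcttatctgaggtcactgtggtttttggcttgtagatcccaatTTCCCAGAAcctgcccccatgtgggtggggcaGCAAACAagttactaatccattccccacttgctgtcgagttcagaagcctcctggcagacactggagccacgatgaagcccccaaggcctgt

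The FOXA-type letters began 47 bases before the AMBP start and 42 bases before the ITIH4 start. The STAT-type letters began 74 bases before the ITIH4 start and were in no other member window. Windows were held for 8 of the 10 members, A2M and ITIH2 being without one. These members had 11 windows, since a gene can have several. The FOXA-type motif was in 5 of the 11 (of AHSG, AMBP, FETUB, ITIH3 and ITIH4), and in 18% of all 35116 windows of the same length. The STAT-type motif was in 1 of the 11 and in 7.66% of all windows. TTGCNNAA, which stands for C/EBP factors, was in 2 of the 11 (of AHSG and FETUB) and in 10.5% of all windows. A match describes letters only.

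The values are log2 RMA values that had been centred for each probe set, so they show how arrays differ and not how strongly a gene was expressed. In 87.3% of probe sets the median of the 6 arrays lay over 0.001 from 0, so the baseline was not the median of these arrays, and 0 is a reference point of unknown makeup. The labelled cell type can therefore not be checked by the level of its markers. The median of each array was 0. Across genes, r lay between 0.451 and 0.717 for arrays that share a label and between -0.31 and 0.0317 for arrays that do not. These r are of centred values, so their size depends on the unknown baseline and does not measure how unlike the groups are. KCNN4 (Entrez gene 3783) was at -0.01, 0.13 and -0.07 on the control arrays and -0.05, 0.09 and 0.01 on the arrays labelled silenced. These values are means of 3 probe sets, which are not given singly here. Its values overlapped between the labels, with a difference of -0.0003 (95% interval -0.16 to 0.16). KCNN4 thus showed neither a clear fall nor a rise, and every direction given here is that of the labels alone. With levels removed, whether its probe sets could show a fall was not tested. In RNA from whole cultures, fewer cells that make a transcript and less of it per cell cannot be told apart.

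A2M was far higher on the arrays labelled silenced, while 9 of the 10 members had a 95% interval that lay wholly below a doubling, a log2 difference of 1. Across the family 2 members were called higher (A2M and AMBP), 1 lower (ITIH2) and 7 were not called. A call means an adjusted p under 0.05 in limma over all 18132 genes (Benjamini-Hochberg). That is 30% of the members, beside 13.3% of all genes called in either direction, 7.14% higher and 6.19% lower. In 3 of 10 members, again 30%, no control array reached the silenced-labelled arrays, beside 29.3% of all genes. The median log2 difference was 0.04 over the members and -0.01 over all genes, and the median size of the difference was 0.10 and 0.08. These members were chosen with the contrast known, so nothing is read from the shares.

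**Figure D1:**
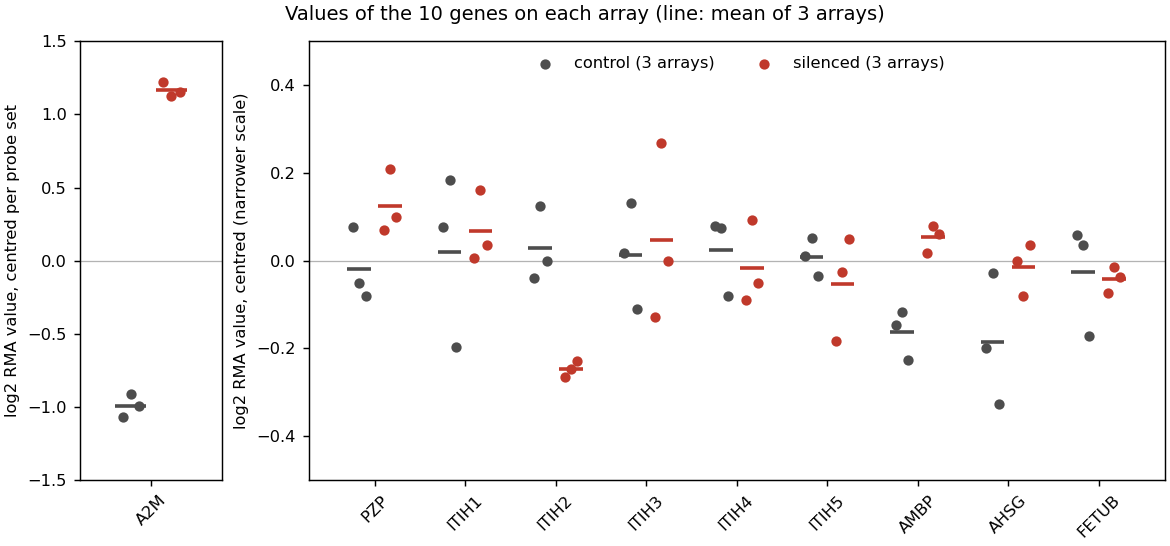
Centred log2 RMA value (vertical axis) of each of the 10 genes on the 3 control arrays (grey) and the 3 arrays labelled silenced (red), with a line at the mean of each group. A2M has its own, wider axis: its control arrays sit between -1.07 and -0.91 and its silenced-labelled arrays between 1.13 and 1.22, whereas every value of the other 9 genes lies between -0.33 and 0.27.

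A2M (Entrez gene 2), the broad-range protease trap, had values of -1.07, -0.91 and -0.996 on the control arrays and 1.22, 1.13 and 1.15 on the arrays labelled silenced. All silenced-labelled arrays were high, all control arrays were low, and the groups were far apart. Control arrays averaged -0.99 ± 0.08 and silenced-labelled arrays 1.17 ± 0.05 (SD, n = 3 each), a log2 difference of 2.16 (SE 0.061, 95% interval 2.02 to 2.30) or 4.47-fold. This was the 4th largest rise among 18132 genes. The gene was represented by 1 probe set, so no second probe set stands behind the value. None of its 6 values was an exact 0, which 23 of the 29 member probe sets held on at least 1 array.

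PZP (Entrez gene 5858), a paralog of A2M with the same trapping mechanism that is known for its rise in pregnancy, showed no comparable difference. Its control values were 0.08, -0.05 and -0.08 and its silenced-labelled values 0.07, 0.21 and 0.10. The groups overlapped, because the first control array lay above the lowest array labelled silenced. The log2 difference was 0.14 (SE 0.066, 95% interval -0.0049 to 0.29), and PZP was not called. Its 2 probe sets disagreed, with differences of 0.29 and -0.0038. On the first probe set 2 of the 3 silenced-labelled arrays read 0.42 and 0.23, and the other read 0.02. The upper bound of 0.29 for PZP lay well below the lower bound of 2.02 for A2M. Both genes lie in 1 cluster on chromosome 12.

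Among the heavy chains, ITIH2 (Entrez gene 3698), one of the chains of the main plasma inter-alpha inhibitor, was lower on the arrays labelled silenced. It had values of -0.04, 0.12 and 0 on the control arrays and -0.27, -0.25 and -0.23 on the arrays labelled silenced. The groups did not overlap, and the silenced-labelled arrays lay within a narrow band. The log2 difference was -0.28 (SE 0.060, 95% interval -0.41 to -0.14), or 1.21-fold lower. All 3 of its probe sets were called lower, with differences from -0.31 to -0.23, beside 4.85% of all probe sets called lower. The gene's call was lost without control replicate 2 (difference -0.23) and without silenced replicate 1, 2 or 3 (-0.27, -0.28 and -0.28).

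ITIH1 (Entrez gene 3697), the other heavy chain of the main plasma complex, had control values of 0.08, 0.18 and -0.20 and silenced-labelled values of 0.01, 0.16 and 0.04. The silenced-labelled values lay inside the span of the controls, and the difference was 0.05 (SE 0.096, 95% interval -0.17 to 0.27). ITIH3 (Entrez gene 3699), the heavy chain that pairs with bikunin in pre-alpha inhibitor, read 0.02, 0.13 and -0.11 on control arrays and -0.13, 0.27 and 0 on the others. It had the widest spread of the silenced-labelled arrays among the members (SD 0.20), and its difference was 0.03 (SE 0.10, 95% interval -0.20 to 0.27). Neither gene was called, and the sign of both turned without control replicate 3, to -0.06 for ITIH1 and -0.03 for ITIH3. ITIH3 also turned without silenced replicate 2, to -0.08.

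ITIH4 (Entrez gene 3700), an acute phase protein that, unlike the other plasma heavy chains, is not linked to bikunin, was covered by 6 probe sets. It read 0.08, 0.07 and -0.08 on control arrays and -0.09, 0.09 and -0.05 on those labelled silenced, with full overlap. Its difference was -0.04 (SE 0.071, 95% interval -0.20 to 0.12), and its probe sets ran from -0.15 to 0.11, 4 negative and 2 positive. With 1 array left out its difference lay between -0.095 and -0.0044. ITIH5 (Entrez gene 80760), a heavy chain expressed in many tissues outside the liver, read 0.01, 0.05 and -0.04 on control arrays and -0.18, -0.03 and 0.05 on the others. The groups overlapped, and its lowest value came from silenced replicate 1, without which the difference of -0.06 (SE 0.070, 95% interval -0.22 to 0.10) became 0.0028. Its 5 probe sets ran from -0.17 to 0.04. ITIH1, ITIH3 and ITIH4, which lie side by side on chromosome 3, were all uncalled. Of ITIH2 and ITIH5, neighbours on chromosome 10, ITIH2 was called and ITIH5 was not, and the difference between them was not tested.

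AMBP (Entrez gene 259), whose precursor yields both bikunin and the lipocalin alpha-1-microglobulin, was slightly higher on the arrays labelled silenced. It had values of -0.15, -0.12 and -0.23 on the control arrays and 0.02, 0.08 and 0.06 on the arrays labelled silenced. Every control array lay below every silenced-labelled array, and the groups did not overlap. The log2 difference was 0.22 (SE 0.055, 95% interval 0.09 to 0.34), or 1.16-fold. All 3 probe sets were positive (0.15, 0.23 and 0.28) without overlap between groups, beside 26.7% of all probe sets in either direction and 13.7% higher, yet none of the 3 was called by itself, beside 5.82% of all probe sets called higher. The gene's call was lost without any 1 of the 6 arrays, where the difference lay between 0.18 and 0.24, and with the replicate number as a block. ITIH2 and AMBP, the heavy and the light chain of 1 complex, thus differed in direction, by small amounts.

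**Figure D2:**
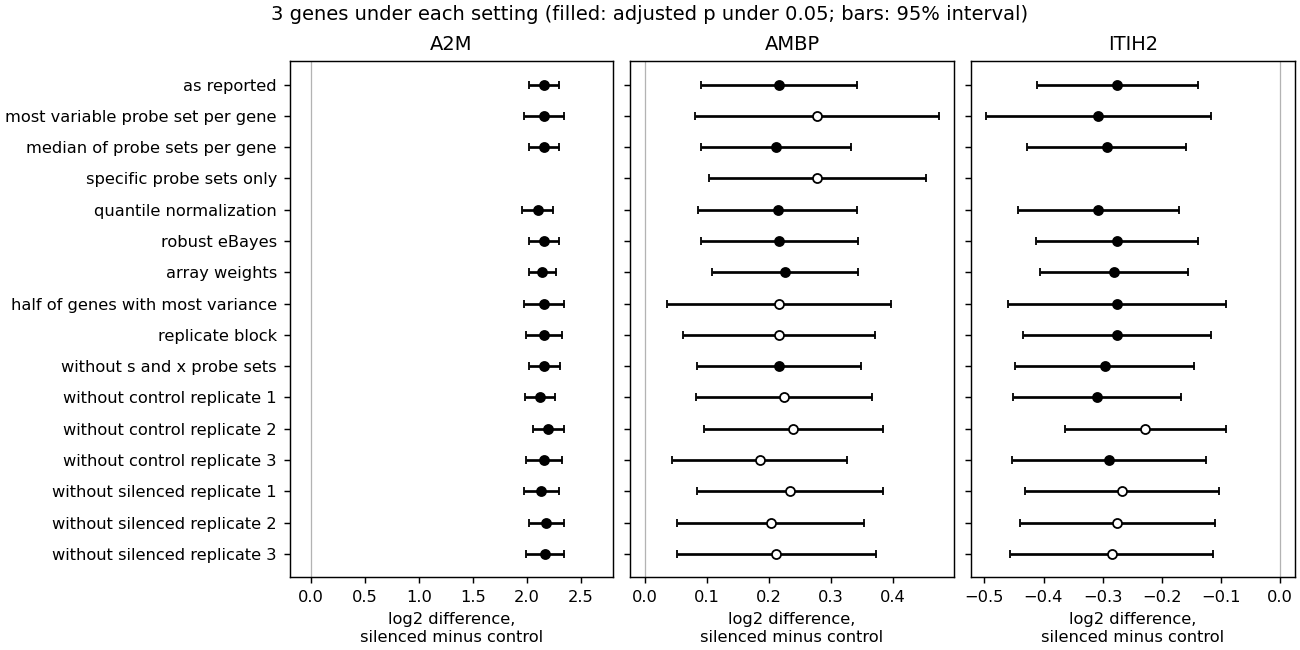
Log2 difference, silenced minus control (horizontal axis, its range set for each gene), of A2M, AMBP and ITIH2 under each setting of the processing (rows), with 95% intervals as bars and filled points where the adjusted p was under 0.05. A2M stays between 2.10 and 2.20 and is called under all 14 alternatives that hold it, whereas AMBP is called under 5 of 15 and ITIH2 under 10 of 14.

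The fetuins were not called. AHSG (Entrez gene 197), fetuin-A, read -0.20, -0.03 and -0.33 on the control arrays and 0, -0.08 and 0.04 on the arrays labelled silenced. The control arrays spread widely (SD 0.15) and the highest of them lay above the lowest silenced-labelled array. The difference was 0.17 (SE 0.080, 95% interval -0.01 to 0.35), and its 2 probe sets gave 0.16 and 0.18. Without control replicate 3 the AHSG difference was 0.098. FETUB (Entrez gene 26998), fetuin-B, which inhibits the zona pellucida protease ovastacin, read 0.06, 0.04 and -0.17 on control arrays and -0.07, -0.01 and -0.04 on the others. Its silenced-labelled values fell inside the span of the controls, and the difference was -0.02 (SE 0.071, 95% interval -0.18 to 0.14). AHSG and FETUB are neighbours on chromosome 3. For the 7 uncalled members together the 95% intervals ran from -0.22 to 0.35.

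**Figure D3:**
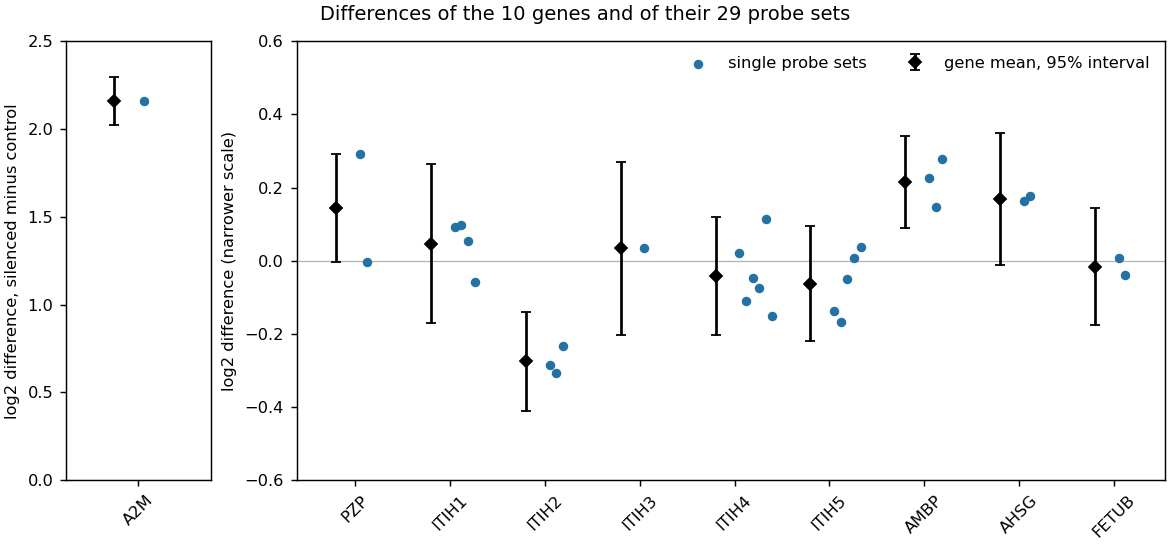
Log2 difference, silenced minus control (vertical axis), of each gene as the mean of its probe sets (black, with 95% interval) and of each of its probe sets (blue). A2M, with 1 probe set, has its own axis; the 3 probe sets of ITIH2 all lie below 0, the 3 of AMBP all above 0, and those of ITIH4 and ITIH5 lie on both sides.

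The members also differed between arrays of the same label. Control replicate 3 was the lowest of the control arrays in 8 of the 10 members, beside 37.3% of all genes. Silenced replicate 1 was the lowest of its group in 8 of the 10, beside 42.4% of all genes. Control replicate 2 was the highest control array in 7 of the 10, beside 36.9% of all genes. Members of a family share arrays, so these counts are a description.

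The genes whose values over the 6 arrays lay closest to those of A2M, by root mean square distance on the centred log2 scale, were AKR1B10 (0.367), SLC27A2 (0.381), AKR1B15 (0.390), TDO2 (0.401) and DACH1 (0.408). AKR1B10 encodes an aldo-keto reductase, SLC27A2 a very long-chain acyl-CoA synthetase of the liver, TDO2 the tryptophan dioxygenase of hepatocytes and DACH1 a transcriptional cofactor. AKR1B15 is a near copy of AKR1B10, so its value is uncertain. Their log2 differences ran from 1.43 for SLC27A2 to 2.73 for AKR1B10. The nearest measured protein-coding neighbours outside the family were 7 genes, of which ZNF618, a zinc finger gene beside AMBP on chromosome 9, was called (difference 0.78, SE 0.080, limma adjusted p = 0.00031). KLRG1, next to A2M, had a difference of -0.04 (SE 0.057, limma adjusted p = 0.73), and KIN, next to ITIH2, of -0.02 (SE 0.056, limma adjusted p = 0.86).

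The enzymes that build the chondroitin sulfate chain linking bikunin to heavy chains included genes with larger changes than any inter-alpha inhibitor gene. Of 19 measured genes 4 fell, 2 rose and 13 did not pass, 31.6% called beside 13.3% of all genes, with a median difference of 0.02. The 19 include FURIN, a protease gene and no builder of the chain, which was not called (difference -0.10). This list and those that follow were written with earlier results of these data known, so nothing is read from their shares. CHSY1, which encodes a chondroitin synthase that polymerises the chain, had values of 0.75, 0.93 and 0.89 on control arrays and -0.29, -0.12 and -0.24 on those labelled silenced. Its groups were well apart, and it was 2.11-fold lower (log2 difference -1.07, SE 0.070, limma adjusted p = 2.7e-05). CSGALNACT1, which starts the chain by adding its first N-acetylgalactosamine, fell by 0.54 (SE 0.061, limma adjusted p = 0.00051). Its relative CSGALNACT2 fell by 0.33 and the sulfotransferase gene CHST15 fell by 0.34. CHST11, which encodes a 4-O-sulfotransferase of chondroitin, rose by 0.45 (SE 0.082, limma adjusted p = 0.007), and the synthase gene CHSY3 by 0.23. CHSY3 missed the threshold whenever any array other than control replicate 3 was left out, with differences from 0.19 to 0.23. XYLT1, XYLT2 and FAM20B, which act on the linker to the core protein, did not pass.

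Genes of hyaluronan and its matrix, the final acceptor of the heavy chains, changed in both directions. Of 19 measured genes 3 rose, 3 fell and 13 did not pass, 31.6% called, with a median difference of 0.01. HAS1 and HYAL1 were not analysed here. HAS2, a hyaluronan synthase gene, rose by 0.37 (SE 0.055, limma adjusted p = 0.0025), from -0.17, -0.16 and -0.20 to 0.26, 0.17 and 0.15. CD44, the main hyaluronan receptor gene, rose by 0.39 (SE 0.088, limma adjusted p = 0.019) and VCAN, which encodes the hyaluronan-binding proteoglycan versican, by 0.33. CEMIP2, which encodes a cell-surface protein described as a hyaluronidase, fell by 0.55 (SE 0.051, limma adjusted p = 0.00017), and HYAL3, of the hyaluronidase family, fell by 0.29. PTX3, whose pentraxin binds heavy chains in the matrix, fell by 0.60 (SE 0.17, limma adjusted p = 0.049), with groups that overlapped and control values of 0, 0.40 and 0.73. TNFAIP6, which encodes TSG-6, did not pass (difference -0.12, SE 0.073).

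Of these hyaluronan calls, those of HAS2 and CEMIP2 held without any 1 array, but HAS2 missed the threshold when each gene took its most variable probe set (0.36, limma adjusted p = 0.11). CD44 (0.31 to 0.39) missed the threshold when control array 1 or 2 or silenced array 1 or 3 was left out. HYAL3 (-0.30 to -0.27) missed it when control array 2 or silenced array 1 or 3 was left out. PTX3 (-0.59 to -0.42) missed it when control array 2 or 3 or silenced array 1 or 2 was left out, and VCAN (0.25 to 0.37) when any array but silenced array 3 was. VCAN also missed it with array weights (0.29) and read 0.043 from plain probe sets alone. PTX3 also missed it with the median of probe sets and with robust moderation (-0.60 in both). The count of called genes was 2 without control replicate 2 and 2 without silenced replicate 1.

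No gene of the receptors that bind or clear A2M passed the test, and 3 of the 4 had negative differences. LRP1, the clearance receptor gene, had a difference of -0.14 (SE 0.054, limma adjusted p = 0.14). LRP2, which encodes megalin, had -0.18 (SE 0.062, limma adjusted p = 0.099), and HSPA5, whose chaperone also binds activated A2M at the cell surface, -0.16 (SE 0.055, limma adjusted p = 0.094). The groups did not overlap in these 3 of 4 genes, beside 29.3% of all genes. LRP1 and LRP2 were called when each gene took its most variable probe set (-0.30 and -0.48, limma adjusted p = 0.043 and 0.018). Other choices of probe sets gave smaller differences without a call. LRP1 read -0.013 from plain probe sets alone and -0.091 with the median of its probe sets. LRP2 read -0.105 without s and x probe sets and -0.14 with the median. None of the 4 genes of the list was called by limma (0 of 4), beside 13.3% of all genes. The median difference of the 4 genes was -0.15 beside -0.01 over all genes. In limma 3 of them had an unadjusted p under 0.05, a cut whose share over all genes was not worked out.

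Of the 5 measured relatives of A2M that form the thioester protein group, C3, the central complement component gene, rose and 4 did not pass (20% called, median difference 0.02). Its difference was 0.24 (SE 0.060, limma adjusted p = 0.029). C3 missed the threshold, at 0.21 to 0.23, when array 1 or 3 of either group was left out. A2ML1, the A2M-like gene of epithelia, had a difference of 0.04 (SE 0.076). C4A, C4B and OVOS2 were not analysed here.

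Among relatives of the fetuins, 3 cystatin genes of 11 measured genes fell (27.3% called, median difference -0.07). CSTA, which encodes the intracellular cysteine protease inhibitor stefin A, had values of 0.51, 0.85 and 0.95 on control arrays and -0.32, -0.60 and -0.53 on those labelled silenced. The groups were far apart, and CSTA fell by 1.25 (SE 0.12, limma adjusted p = 0.00019). CSTB, which encodes stefin B, fell by 0.35 (SE 0.068, limma adjusted p = 0.0099) and CST5, which encodes cystatin D, fell by 0.20 (SE 0.050, limma adjusted p = 0.03). The other 8 did not pass, HRG and KNG1 among them, the plasma members encoded beside the fetuins (differences -0.07 and 0.13). CST5 (-0.20 to -0.19) missed the threshold when any array other than control replicate 1 was left out.

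Interleukin-6 signalling and liver transcription factors act on acute phase genes, ITIH4 among them. Of 19 measured genes of both kinds 5 rose, 1 fell and 13 did not pass, 31.6% called beside 13.3% of all genes, with a median difference of 0.06. HNF4A was listed but not analysed here. LIFR, the leukemia inhibitory factor receptor gene, rose by 0.94 (SE 0.12, limma adjusted p = 0.0012), from -0.74, -1.24 and -0.85 to 0.12, -0.01 and -0.13. FOXA1, a pioneer factor gene of the liver, rose by 0.66 (SE 0.065, limma adjusted p = 0.00024), FOXA3 by 0.41 and CEBPD, an acute phase factor gene, by 0.54. NR3C1, the glucocorticoid receptor gene, fell by 0.57 (SE 0.081, limma adjusted p = 0.0018). IL6R, the interleukin-6 receptor gene, was called at a difference of 0.20 (SE 0.057, limma adjusted p = 0.049).

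The genes JAK1, JAK2, TYK2, IL6ST, STAT3 and SOCS3 of the interleukin-6 signalling chain did not pass. STAT3, the main transcription factor gene of that chain, had a difference of 0.18 (SE 0.069, limma adjusted p = 0.13), and 0.12 without control replicate 1. The shared receptor chain gene IL6ST had -0.21 (SE 0.13, limma adjusted p = 0.39), with -0.34 without silenced replicate 1 and -0.094 without silenced replicate 3. SOCS3, a feedback target of STAT3, had a difference of 0.07 (SE 0.053, limma adjusted p = 0.51). The call of IL6R was lost without any 1 array (0.17 to 0.23), and its sign turned to -0.01 without the probe sets that can match other transcripts. CEBPD lost its call without silenced replicate 3 (0.46), and with 3 other choices of probe sets (0.54 in each, limma adjusted p from 0.071 to 0.12).

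Among proteases that A2M or bikunin can bind, 2 of 22 measured genes rose, 3 fell and 17 did not pass, 22.7% called, with a median difference of -0.04. ADAMTS7 and PRSS2 were not analysed here. PLAU, which encodes urokinase, rose by 0.55 (SE 0.079, limma adjusted p = 0.0019), and PLAT, the gene of the other plasminogen activator, fell by 0.32 (SE 0.067, limma adjusted p = 0.013), a call lost without s and x probe sets (-0.24). ADAMTS1, a gene of the ADAMTS family of metalloproteases, fell by 0.37 (SE 0.056, limma adjusted p = 0.0028). The prothrombin gene F2 fell by 0.32, and the trypsin gene PRSS3 rose by 0.31. PRSS3 (0.25 to 0.31) missed the threshold when array 1 or 3 of either group was left out. PLG, the gene of plasminogen, which is the substrate of both activators, had a difference of 0.04 (SE 0.068).

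**Figure D4:**
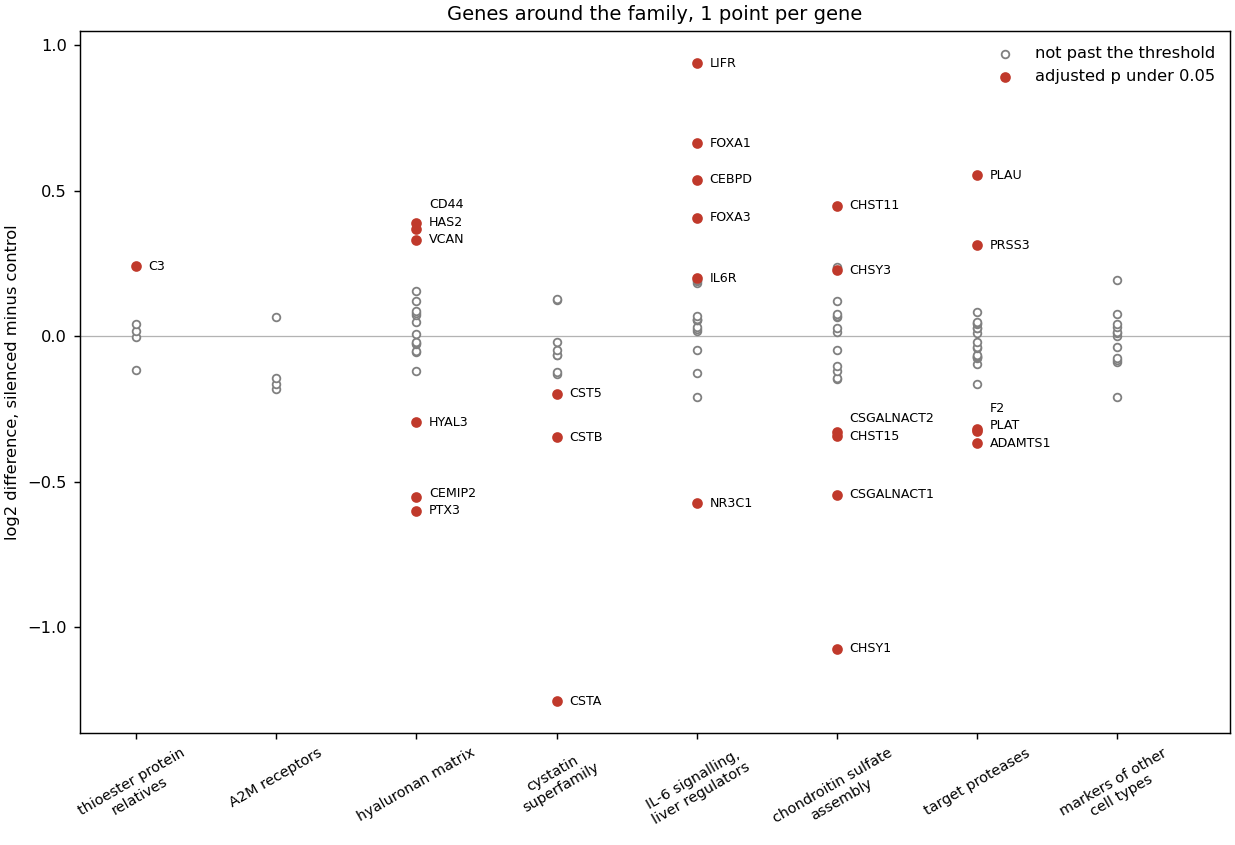
Log2 difference, silenced minus control (vertical axis), of each measured gene in 8 lists around the family (horizontal axis), 1 point per gene; red points with names are genes with an adjusted p under 0.05 and open points are not. CHSY1 at -1.07 and CSTA at -1.25 are the lowest points, LIFR at 0.94 is the highest, and no gene of the A2M receptors or of the markers of other cell types is red.

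Because A2M is also made by fibroblasts, endothelium and macrophages, 12 markers of those cells were read. None was called by limma (0 of 12), beside 13.3% of all genes. In limma 1 had an unadjusted p under 0.05, a cut whose share over all genes was not worked out. With levels removed, an absent transcript would also go uncalled, so these markers cannot show whether such cells were present. CD68 had a difference of -0.21 (SE 0.069) and CD14 of 0.19 (SE 0.095). The CD14 difference was 0.085 without control replicate 1, which read -0.40. Of 5 hepatoma genes AFP, APOB and SERPINA1 rose, by 0.70, 0.38 and 0.40, beside 7.14% of all genes called higher. ALB (0.16) and TTR (0.06) did not pass. The groups of ALB did not overlap, beside 29.3% of all genes, and those of TTR did. The part of such shifts in the difference of A2M was not tested.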

How the data were processed

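The deposited table holds log2 values of 49395 probe sets on 6 arrays, made by the authors with RMA per the submitters' processing notes (version not given). The values lie near 0, with an exact 0 on at least 1 array in 80.6% of the probe sets; that they are log2 RMA values centred per probe set was worked out from the values and is not stated in the sources used here. Centring cancels in differences and removes expression levels. After 102 control probe sets were left out, 44988 of 49293 probe sets carried 1 gene symbol, 1832 several and 2473 none here. Probe sets with 1 symbol were averaged per gene (18132 genes). Because levels are absent, no filter on dim probe sets was possible, and precision is limited by 3 arrays per group.

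Silenced and control arrays were compared with limma 3.58.1 (lmFit and eBayes) in R 4.3.3 on the 6 arrays, fitting group alone. Intervals are 95% moderated intervals. On simulated data with 18132 genes the script recovered 79% of genes changed by 0.5 and 97% of genes changed by 1 on the log2 scale, with 9 false calls. The simulated noise was normal and independent between genes, and far fewer genes were changed than were called here. These rates therefore check the script and do not carry over to the real calls. Members and lists were chosen with earlier results of these data known. Named were all members, KCNN4, up to 3 called genes per list (2 where none was called), 7 fixed genes, neighbours of the members and the 5 genes nearest to A2M. Other named genes complete a count or were added after values were seen. Alternatives were other gene summaries, probe set filters, quantile normalization, robust moderation, array weights, a variance filter, the replicate number as a block and leaving out each array.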

Additional observations from a re-analysis of the deposited data

How the results depend on the processing

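A2M kept its direction and its call under every alternative that held it, between 2.10 and 2.20. With 1 probe set, its difference of 2.16 could not change under the other gene summaries or probe set filters that held it. With plain probe sets alone, a choice that also leaves out those shared by transcripts of 1 gene, 8 of the 10 members, A2M and ITIH2 among them, had no value. The counts there fell to 570 genes, 0 members higher and 0 lower of the 2 left (AMBP and ITIH5), and 0 thioester relatives, 0 cystatin relatives, 1 hyaluronan gene, 2 interleukin-6 and liver regulators, 2 chondroitin sulfate genes and 1 protease, with fewer genes tested. The number of members higher was 1 (A2M) when each gene took its most variable probe set, with the variance filter and with the replicate block. The number of thioester relatives called was 0 with the variance filter and with the block. With the most variable probe set 2 A2M receptors were called, LRP1 (-0.30) and LRP2 (-0.48), while 8 named genes lost their calls (AMBP, C3, CEBPD, CHSY3, CST5, HAS2, IL6R and VCAN).

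Leaving out 1 array at a time gave 1641 to 2289 called genes, 3252 to 4592 called probe sets, 1 member higher, 0 to 1 lower, 0 to 1 thioester relatives and 2 to 4 hyaluronan genes. Signs turned only in small differences. FETUB read 0.0097 with array weights, 0.0062 with the most variable probe set, and -0.089 to 0.026 when 1 array was left out. ITIH4 read 0.11 with the most variable probe set. With 1 array left out ITIH1 read -0.062 to 0.128, ITIH3 -0.077 to 0.122 and ITIH5 -0.114 to 0.0028. IL6R read -0.012 without s and x probe sets, an alternative chosen after seeing the data. The cause of each of these shifts was not tested.

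Same-numbered arrays did not deviate together (correlations of deviations -0.096, -0.0694 and -0.0397). Deviations from a mean of 3 arrays are bound to each other, so these values cannot decide whether the numbers pair the samples. Each array correlated best with 1 of another number: control 1 with silenced 2 (0.373), control 2 with silenced 3 (0.381) and control 3 with silenced 1 (0.381). The labels give no such matching, and it was not fitted. With the replicate block 2065 genes were called in place of 2418, and AMBP, C3, CHSY3, CST5, IL6R and PRSS3 lost their calls.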
